A study of Mus musculus with 6 samples.

Results

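Transcripts of 10 genes listed as epididymal were followed in mouse adipose tissue. The epididymis is the duct in which sperm mature, and Bex1 among the genes is known from brain. The genes were Crisp1, Crisp3, Adam7, Spint3, Lcn5, Lcn9, Gpx5, Cuzd1, Adgrg2 and Bex1, chosen by name because earlier results of these same arrays had shown them, so the difference between the genotypes and the spread among the lean samples helped to choose them. They are described here and not tested. All 10 were found, on 11 of the 39507 reporters of the table and among 25811 gene symbols, with Adgrg2 carried under its older symbol Gpr64. The study compared fat labelled eWAT between 3 ob/ob samples, homozygous for the obese mutation of the leptin gene, and 3 lean ob/+ control samples, all aged 9 weeks. The labels give C57BLKS/J as the genetic background for the pool that every array shares, and do not give the sex. Each of the 6 two-colour arrays set 1 sample, in Cy5, against the same pool of combined ob/+ RNA, in Cy3. A log2 ratio of 0 therefore means the level of the lean pool.

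The epididymis is a single coiled tube whose epithelium secretes proteins onto passing sperm, and each of its segments, from initial segment through caput and corpus to cauda, expresses its own set of genes. Several of them, Crisp1, Gpx5 and Lcn5 among them, depend on androgens from the blood or on factors from the testis. In the male mouse the epididymal fat pad is attached to this duct.

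The promoters of Crisp1 and Crisp3 are shown first because these genes lie next to each other among the protein-coding genes of chromosome 17 and had nearly equal ratios on every ob/+ array. Both encode cysteine-rich secretory proteins that bind sperm. The sequences are the 250 bases before the annotated start, from RefSeq on GRCm38.p6, both on the minus strand, chr17:40319208-40319457 for Crisp1 and chr17:40242289-40242538 for Crisp3, with capitals at the bases where they differ.
Crisp1: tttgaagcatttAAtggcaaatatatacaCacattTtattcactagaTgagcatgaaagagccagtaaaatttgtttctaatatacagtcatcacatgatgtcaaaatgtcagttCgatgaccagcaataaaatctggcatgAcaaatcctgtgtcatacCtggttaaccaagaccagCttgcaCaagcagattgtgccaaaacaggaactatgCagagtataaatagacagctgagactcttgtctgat
Crisp3: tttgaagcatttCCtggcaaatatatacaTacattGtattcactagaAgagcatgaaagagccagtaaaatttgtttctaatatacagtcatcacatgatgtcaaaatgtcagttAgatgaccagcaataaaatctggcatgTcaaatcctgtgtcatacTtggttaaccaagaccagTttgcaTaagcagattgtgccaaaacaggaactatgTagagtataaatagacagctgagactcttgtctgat
The promoters matched at 239 of 250 bases, 95.6%, and differed at 11. The other 35 pairs among the 9 members with a promoter sequence matched at 19.6% to 34.8% of positions. The letters AGGAAG or CTTCCT, bound by PEA3 factors of the ETS family, were searched on both strands and were in 0 of the 9 promoters and in 29.2% of all 27025 promoters of this length. The letters TGTTCT or AGAACA, an androgen receptor half-site, were in 2 of the 9, Spint3 and Lcn9, and in 16.2% of all 27025. Such searches of letters describe the window only.

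In lean fat, most of these genes had very different levels from sample to sample, and in ob/ob fat all 10 were below the lean pool on all 3 arrays. The range of the log2 ratio over the 3 ob/+ arrays was at least 1 for 9 of the members and at least 2 for 8, and 4.59% and 0.764% of all genes had ranges that wide. The median SD among the ob/+ arrays was 1.58 for the members and 0.116 over all genes. The members' value was 0.94 without ob/+ replicate 2, and quantile normalization made it 3.26. Among the ob/ob arrays the members' median SD was 0.20, and each of the 10 members had a larger SD in ob/+ than in ob/ob. These values belong to the contrast that chose the genes, and nothing is read from the comparison with all genes. Because tissue pieces were measured whole, fewer cells of a type and less RNA per cell cannot be told apart in any of the values that follow.

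**Figure D1:**
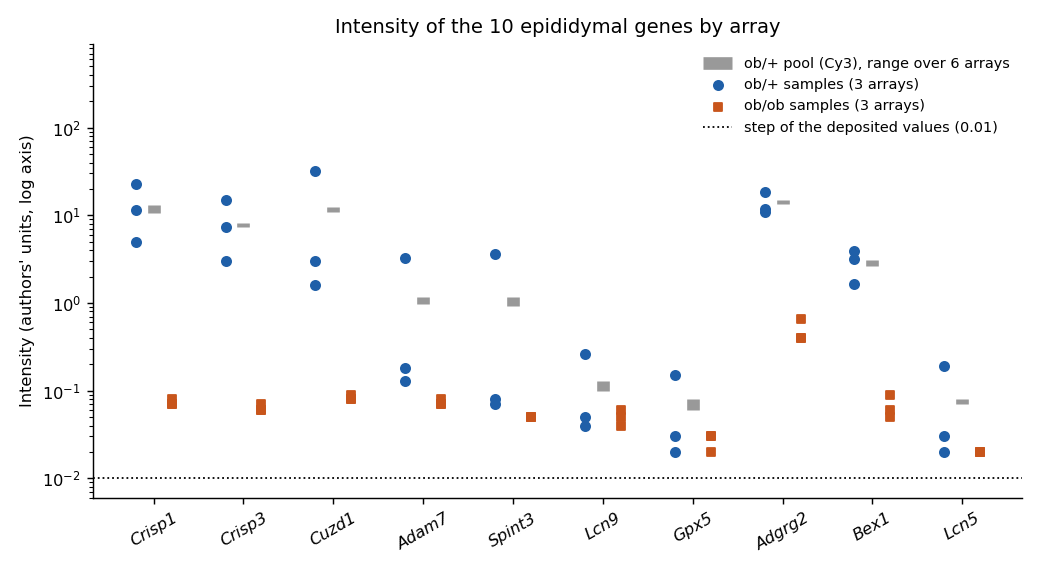
Deposited intensity (authors' units, log axis) of the 10 genes in each of the 3 ob/+ samples (circles) and 3 ob/ob samples (squares), with the range of the ob/+ pool over 6 arrays (bars). The ob/+ samples spread from 0.07 to 3.58 for Spint3 and from 11.02 to 18.37 for Adgrg2, and the dotted line marks the step of 0.01 in which most values were deposited.

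Crisp1 had ob/+ intensities of 4.93, 11.51 and 22.53, and ob/ob intensities of 0.07, 0.07 and 0.08. Its pool intensity stayed between 10.54 and 12.97 over the 6 arrays. The lowest lean sample was thus far above every obese sample, while the lean samples themselves differed 4.57-fold. By replicate, its log2 ratios were -1.40, 0.91 and -0.06 in ob/+ replicates 1, 2 and 3, and -7.28, -7.24 and -7.24 in ob/ob. The difference of ob/ob minus ob/+ was -7.07 ± 0.61 (SE, n = 3 and 3) on the log2 scale.

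Crisp3, which is also known from salivary gland, had ob/+ intensities of 2.99, 7.36 and 14.76, and ob/ob intensities of 0.06, 0.06 and 0.07. Its log2 ratios of -1.38, 0.86 and -0.06 in ob/+ replicates 1, 2 and 3 put the samples in the same order as those of Crisp1, and the genotypes did not overlap. The root mean square difference between the pair over the ob/+ arrays was 0.03, the smallest of any pair of members, and the difference of ob/ob minus ob/+ for Crisp3 was -6.72 ± 0.60. Probe sequences were not used here, so it cannot be told whether either reporter also bound transcripts of the other gene.

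Adam7 encodes a membrane protein of the epididymis, without protease activity, that is passed to sperm. Its bright reporter read 0.13, 0.18 and 3.23 in ob/+ and 0.07, 0.07 and 0.08 in ob/ob. A single lean sample carried 91.2% of the summed lean intensity, and the other lean samples were just above the obese ones, without overlap. The log2 ratios were -3.12, 1.46 and -2.54 in ob/+ replicates 1, 2 and 3, so that sample was replicate 2. The ob/ob minus ob/+ difference was -2.44 ± 1.31, and -1.01 without ob/+ replicate 2. A second, dimmer Adam7 reporter, with a mean pool intensity of 0.0467, had ratios of -0.32, 0.26 and -0.32 in ob/+, also highest in replicate 2, and a difference of -0.26 with overlapping groups.

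Spint3, a Kunitz-type protease inhibitor, showed the widest spread of the 10. Its ob/+ intensities were 0.07, 0.08 and 3.58, against 0.05 on each ob/ob array. The highest lean sample was again replicate 2, at a log2 ratio of 1.62, with replicates 1 and 3 at -3.79 and -3.95, and it held 96.0% of the summed lean intensity. The highest and lowest lean samples differed 51.1-fold. The genotypes did not overlap, but the other lean samples lay within 0.03 intensity units of the ob/ob arrays, where the step of 0.01 is coarse. Its difference was -2.23 ± 1.66 and went to -0.40 without ob/+ replicate 2.

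Cuzd1 encodes a membrane protein with CUB and zona pellucida-like domains, also known from pancreas and uterus. Its ob/+ intensities were 1.62, 3.01 and 32.03 and its ob/ob intensities 0.08, 0.08 and 0.09. Replicate 2 was highest once more, with log2 ratios of -2.92, 1.46 and -1.99 over the ob/+ replicates. Unlike in Adam7 and Spint3, the lowest lean sample stood 19.4-fold above the ob/ob mean. The difference of ob/ob minus ob/+ was -5.98 ± 1.21, and -4.67 without ob/+ replicate 2. Over the ob/+ arrays Adam7 and Cuzd1 were a close pair, with a root mean square difference of 0.34.

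Lcn5, Lcn9 and Gpx5 were high in 1 lean sample each, but not in replicate 2. Lcn5 is an epididymal lipocalin that binds retinoic acid. It read 0.02, 0.03 and 0.19 in ob/+ and 0.02 on every ob/ob array, with ob/+ log2 ratios of 1.25, -2.0 and -1.42. Replicate 1 was therefore the high one, the only member for which it was, and 1 lean sample was not above the highest ob/ob array. The difference was -1.21 ± 0.91, and -0.23 without ob/+ replicate 1.

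Lcn9, another lipocalin of the epididymis, read 0.04, 0.05 and 0.26 in ob/+ and 0.04, 0.05 and 0.06 in ob/ob. Its log2 ratios of -1.38, -1.58 and 1.38 in ob/+ made replicate 3 the high sample, and the other lean samples were not above the highest ob/ob array. Its difference of -0.79 ± 0.88 turned to 0.16 when ob/+ replicate 3 was left out. Gpx5, a secreted glutathione peroxidase that lacks selenocysteine, had the same shape, with 0.02, 0.03 and 0.15 in ob/+ and 0.02, 0.03 and 0.03 in ob/ob. The ob/+ ratios of Gpx5 were -1.58, -1.42 and 1.1, and its difference of -0.71 ± 0.80 also turned to 0.16 without ob/+ replicate 3. Lcn9 and Gpx5 differed by a root mean square of 0.22 over the ob/+ arrays. Rounding alone can shift the difference of ob/ob minus ob/+ by up to 0.84 for Lcn5, 0.78 for Gpx5 and 0.40 for Lcn9. In these genes only the single high samples stand clear of the step.

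**Figure D2:**
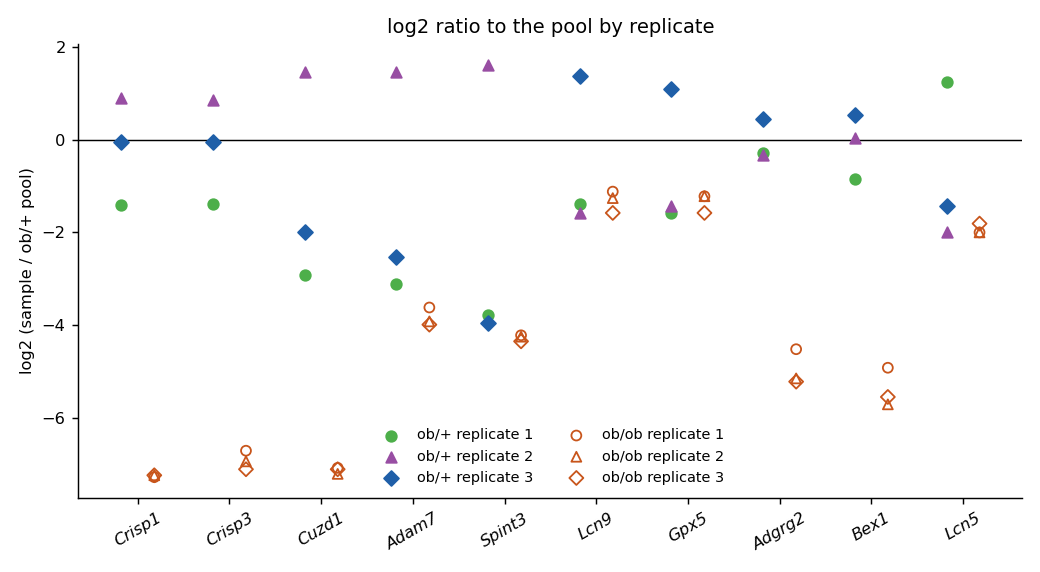
log2 ratio of each sample to the ob/+ pool for the 10 genes, by replicate (filled symbols ob/+, open symbols ob/ob; 1 point per array, n = 3 per genotype). Replicate 2 was the highest ob/+ sample for 5 genes, replicate 3 for 4 and replicate 1 for Lcn5, while the ob/ob points lie close together.

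Adgrg2 and Bex1 were the steadier members in lean fat. Adgrg2, an adhesion receptor of the efferent ducts and proximal epididymis that is needed for fluid uptake, read 11.02, 11.93 and 18.37 in ob/+ and 0.40, 0.40 and 0.65 in ob/ob. Its ob/+ log2 ratios were -0.28, -0.34 and 0.45, an SD of 0.44, the smallest of the 10, and its difference was -4.91 ± 0.31. The ob/ob mean of 0.483 ± 0.144 (SD, n = 3) lay clear of the rounding step, and ob/ob replicate 1 was the highest at -4.52, against -5.15 and -5.22.

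Bex1, a small X-linked adaptor protein known from brain, read 1.63, 3.14 and 3.92 in ob/+ and 0.05, 0.06 and 0.09 in ob/ob. Its log2 ratios were -0.84, 0.03 and 0.53 in ob/+ and -4.92, -5.71 and -5.55 in ob/ob, with no overlap and a difference of -5.30 ± 0.42. Replicate 3 was the highest lean sample for both Adgrg2 and Bex1, and the pair differed by a root mean square of 0.39 over the ob/+ arrays.

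Across the 10 members the median difference of ob/ob minus ob/+ was -3.67, against 0.00 over all genes tested. In 7 members all 3 ob/ob arrays lay below all 3 ob/+ arrays, an order that 19.8% of all genes showed. Lcn5, Lcn9 and Gpx5 overlapped. At an adjusted p under 0.05 in limma, 5 of the 10, namely Crisp1, Crisp3, Cuzd1, Adgrg2 and Bex1, would be called lower, with 12.2% of all genes called lower. These counts restate the choice of the genes. The 5 others had SEs of 0.80 to 1.66, and in each of them 1 lean sample held 74.3% to 96.0% of the summed lean intensity. Cuzd1, among the called, lay within both ranges, at an SE of 1.21 and a share of 87.4%.

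The mean of the 3 ob/+ intensities over the mean pool intensity was 0.952 to 1.11 for the 10 genes, with a median of 1.01. The pool therefore held these transcripts at about the average of the 3 lean samples. The column headers describe the pool as n = 3, and whether it was combined from these same samples is not stated. If it was, such ratios follow from the design. A gene high in a single lean sample would then also read below the pool in the others. In the authors' deposited table, the p-value of sample against pool was under 0.05 for 9, 8 and 7 of the 10 members on the 3 ob/+ arrays, where 1.84%, 2.86% and 3.41% of all genes were under it. On each ob/ob array all 10 members were under it in the authors' deposited table, as were 24.4%, 26.9% and 26.7% of all genes. The SD of each member among the ob/+ arrays lay at or above percentile 97.6 of the 1000 reporters nearest to it in pool intensity. Since genotype difference and lean spread helped to choose the members, these counts and percentiles restate that choice.

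**Figure D3:**
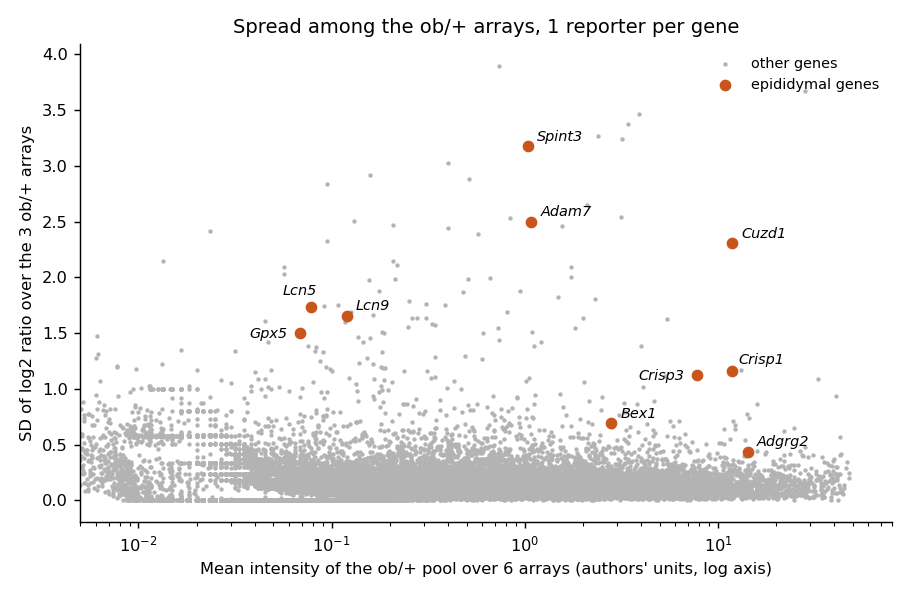
SD of the log2 ratio over the 3 ob/+ arrays against the mean pool intensity (log axis), 1 reporter per gene, with the 10 epididymal genes in orange. Spint3 lies at an SD of 3.17 and Adgrg2 at 0.44, and the median over all genes is 0.116.

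Some other genes of the epididymis were also high in a single lean sample. Of 87 listed secreted or epididymis-enriched genes other than the members, 71 were measured and tested. Of these, 9 were called lower in ob/ob, 2 higher and 60 neither, and the share called over all genes was 12.2% lower and 12.4% higher. In place of 9, leaving out ob/+ replicate 1 gave 3 genes, ob/+ replicate 3 gave 5, ob/ob replicate 2 gave 5 and ob/ob replicate 3 gave 4, while 13 were called without ob/+ replicate 2. Quantile normalization gave 0 in limma (6 at an unadjusted p under 0.05), and a replicate block gave 3. The median difference of the list was -0.44. The list was drawn up with results of these arrays known, so neither its direction nor its spread among the ob/+ arrays is independent evidence.

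Among the 70 genes of the list with values on all ob/+ arrays, 27, or 38.6%, had a range of at least 1, where the share over all genes was 4.59%. Replicate 2 was the highest lean sample for 21 of the 27, replicate 1 for 3 and replicate 3 for 3. Spink12, counted for replicate 1, was at 0.0 in replicates 1 and 2 alike, with ob/+ intensities of 0.01 to 0.02. In replicate 2, 18 of the 27 were at a log2 ratio of 1 or more, while 20 in replicate 1 and 18 in replicate 3 were at -1 or less. Spink10, of the Kazal inhibitor family, had the widest range, 7.06, with -4.72, 1.68 and -5.38.

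Ces5a, a carboxylesterase secreted by the epididymis, had log2 ratios of -4.29, 1.54 and -4.62 in ob/+ replicates 1, 2 and 3 and between -5.58 and -5.35 in ob/ob, and was not called (-2.97 ± 1.82, adjusted p = 0.336 in limma). Defb28, a beta-defensin, had -4.15, 1.63 and -4.29 and was not called either (adjusted p = 0.27 in limma). Crisp4, the remaining epididymal member of the CRISP family, followed with -2.14, 1.42 and -1.87. In these genes, as in Adam7 and Spint3, replicate 2 was the high sample and replicates 1 and 3 were well below the pool.

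Other lean samples stood out for other genes. Spint4, a relative of Spint3, was highest in replicate 1, at 1.0, -1.32 and -1.58, the shape of Lcn5. Lcn8, a lipocalin next to Lcn5, was highest in replicate 3, at -1.0, -0.42 and 1.0, but its ob/+ intensities were only 0.02 to 0.08. The beta-defensin Defb48 was highest in replicate 3 too, at -1.19, -0.21 and 0.83. In ob/ob Defb48 fell by 3.05 ± 0.56 (adjusted p = 0.0232 in limma).

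**Figure D4:**
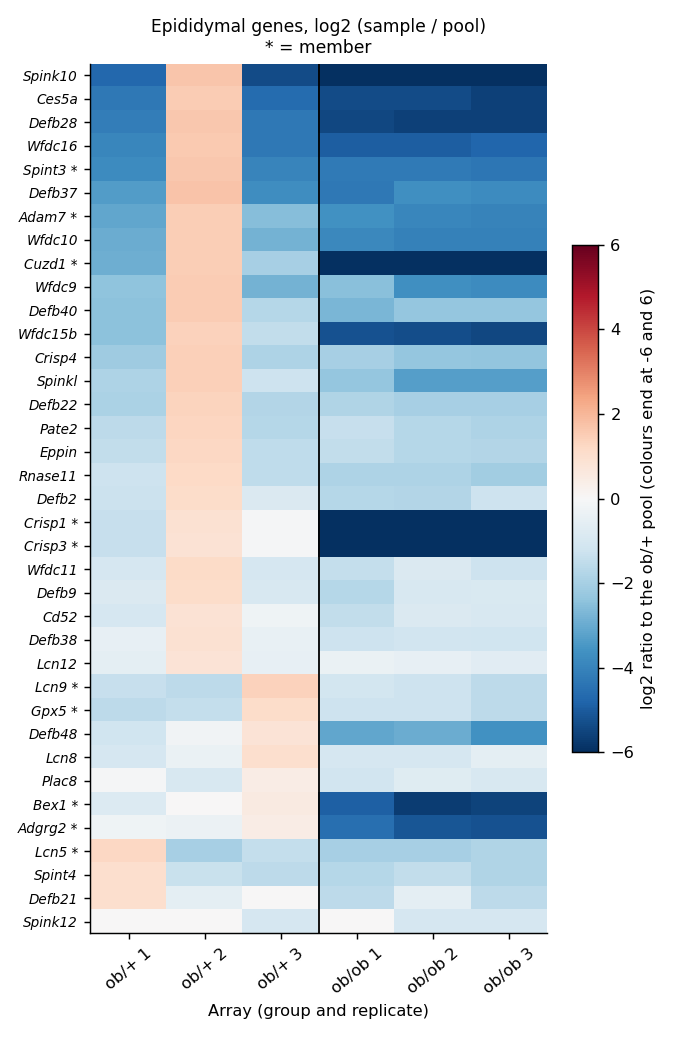
log2 ratio to the ob/+ pool on each of the 6 arrays for the 10 members (starred) and the 27 other epididymal genes whose ob/+ range was at least 1, grouped by the ob/+ replicate in which they were highest. Red cells in ob/+ replicate 2 mark the 5 members and 21 other genes highest there, and colours end at -6 and 6.

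Genes of the list that passed the test, besides Defb48, follow. Spink8, a Kazal-type inhibitor, fell by 5.94 ± 0.44 (adjusted p = 0.00575 in limma), with ob/+ intensities of 11.67 and 28.22 and ob/ob intensities of 0.27 to 0.32. Its ob/+ replicate 2 had no deposited value, so the fit dropped that array. Defb29 fell by 2.00 ± 0.24 (adjusted p = 0.00794) in limma. Wfdc15b, of the whey acidic protein family, fell by 4.49 ± 1.05 (adjusted p = 0.0436 in limma). Clu, which encodes clusterin and is made in many tissues, fell by 0.69 ± 0.11 (adjusted p = 0.0152 in limma). Falls were also called for Defb39 (1.07 ± 0.12), Spag11a (0.58 ± 0.10), Aqp9 (0.60 ± 0.09) and Defb10 (0.30 ± 0.07). Aqp9 and Defb10 were dim, at mean pool intensities of 0.0917 and 0.115. Npc2, a cholesterol carrier abundant in epididymal fluid and present in lysosomes of all cells, rose by 1.75 ± 0.26 (adjusted p = 0.0136 in limma). Etv5 rose by 0.65 ± 0.16 (adjusted p = 0.0459 in limma).

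Neighbours on the chromosome differed in whether they shared the spread. Among the 6 protein-coding genes to each side of Spint3, 10 were measured and 3 had an ob/+ range of at least 1. These were Eppin, Wfdc16 and Wfdc9, protease inhibitors of the male tract, with log2 ratios in replicate 2 of 1.22, 1.55 and 1.5. Wfdc8 in the same cluster had a range of 0.07, and the adjacent Wfdc2, an inhibitor of many epithelia, one of 0.53. Lcn8 was the single gene of such a range among 11 measured around Lcn5, at ob/+ intensities of 0.02 to 0.08. Around Bex1 there were 3 of 11, Nxf3, Bex4 and Tceal7, the last at intensities of 0.01 to 0.02, where the range is that of 1 rounding step in each channel. Around Adam7, Lcn9 and Gpx5 there were 0 of 12, around Adgrg2 0 of 11, and around Cuzd1 1 of 12, the dim Fam24b.

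Relatives of the members from the same protein families gave calls in both directions. Over all genes, 12.2% were called lower and 12.4% higher, and these shares apply to every list below. Each of those lists was also drawn up with results of these arrays known, so its calls are not independent evidence. Of 10 BEX and TCEAL relatives of Bex1, 7 were called lower and 1 higher. Bex4 fell by 3.11 ± 0.33 (adjusted p = 0.00652) and Bex3 by 0.92 ± 0.21 (adjusted p = 0.0413), while Tceal8 rose by 0.52 ± 0.09 (adjusted p = 0.0192), all in limma. Of 12 CRISP and CAP-domain relatives, 5 were lower and 1 higher, and Pi15 fell by 2.86 ± 0.16 (adjusted p = 0.00207 in limma). Of 14 other lipocalins, 0 were lower and 3 higher in limma, with 1 lower at an unadjusted p under 0.05. Ptgds, a lipocalin that makes prostaglandin D, had the replicate 2 pattern at -1.78, 1.22 and -1.43 and was not called (-2.92 ± 0.86, adjusted p = 0.0789 in limma). Of 25 other ADAM genes, 2 were lower and 5 higher, and Adam8, known from leukocytes, rose by 3.31 ± 0.29 (adjusted p = 0.00461 in limma).

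Many general markers of epithelium fell in ob/ob fat, with 12.2% of all genes called lower and 12.4% higher. This list too was drawn up with results of these arrays known. Of 29 general epithelial genes, 21 were called lower and 2 higher in limma, with a summed intensity of 20.1 to 33.4 in ob/+ and 6.38 to 8.76 in ob/ob. Of these genes, 10 had a range of at least 1 over the ob/+ arrays, with 5 highest in replicate 2 and 5 in replicate 3. Mmp7, a protease of glandular epithelia, fell by 5.55 ± 0.25 (adjusted p = 0.00142 in limma), with ob/+ ratios of -0.57, 0.14 and 0.32. The epithelial cell adhesion gene Cdh1 fell by 4.23 ± 0.41 (adjusted p = 0.00536 in limma). The 2 higher calls were St14, which rose by 1.51 ± 0.18 (adjusted p = 0.0086), and Mal2, by 1.45 ± 0.15 (adjusted p = 0.00635), both in limma.

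Of 13 genes of the efferent ducts and ductal resorption, 7 were lower and 1 higher, summed at 11.4 to 23.7 in ob/+ and 7.81 to 10.6 in ob/ob. Lrp2, an endocytic receptor of resorbing epithelia, fell by 3.16 ± 0.53 (adjusted p = 0.0189 in limma). Cubn, the higher call, rose by 0.90 ± 0.12 (adjusted p = 0.0113 in limma). Of 20 motile cilia genes, 11 were lower and 1 higher, summed at 20.9 to 28.7 and 9.42 to 11.9. Foxj1, the master regulator of motile cilia, fell by 4.72 ± 0.30 (adjusted p = 0.00266 in limma), with ob/+ ratios of -0.54, -0.08 and 0.59. Like Adgrg2, Lrp2 and Foxj1 were highest in ob/+ replicate 3.

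The 14 genes of clear and basal cells, the other epithelial cells of the epididymis, gave 1 lower and 3 higher call, summed at 2.33 to 3.48 in ob/+ and 4.87 to 6.59 in ob/ob. A range of at least 1 over the ob/+ arrays was seen in 6 of them, all highest in replicate 2. Krt5, a basal cell keratin, fell by 0.31 ± 0.07 (adjusted p = 0.043 in limma). The higher calls were Atp6v0d2, a proton pump subunit also known from macrophages and osteoclasts, which rose by 3.67 ± 0.46 (adjusted p = 0.00916), the carbonic anhydrase Car12, by 3.13 ± 0.41 (adjusted p = 0.0102), and the integrin Itga6, by 0.84 ± 0.18 (adjusted p = 0.0332), all in limma. Atp6v0d2 alone read 0.14 to 0.19 in ob/+ and 1.17 to 3.89 in ob/ob. Of 11 mesothelial genes, 3 were lower and 0 higher in limma, also 0 higher at an unadjusted p under 0.05, summed at 23.3 to 30.4 and 10.4 to 22.7. Wt1, a transcription factor of mesothelium, fell by 1.40 ± 0.18 (adjusted p = 0.00924 in limma). For 10 genes of oviduct and uterus, 2 were lower and 0 higher in limma, and 0 higher at an unadjusted p under 0.05, summed at 2.62 to 4.02 and 1.07 to 1.17. No listed marker was at 0 on any array. The part of these cell types in the levels of the 10 members was not tested.

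The labelled tissue was checked on its own markers. Adipoq, the adiponectin gene of adipocytes, read 27.04 to 30.42 in ob/+ and 10.20 to 14.26 in ob/ob, a fall of 1.26 ± 0.22 (adjusted p = 0.0193 in limma), and its ob/+ log2 ratios of -0.09, 0.14 and -0.15 stayed close to the pool. Of 10 adipocyte genes, 6 were lower and 1 higher, summed at 106 to 116 in ob/+ and 55.6 to 72.4 in ob/ob. The Y-linked Ddx3y read 6.42 to 7.81 on the 6 arrays. Over all lists, with the members left out and each gene counted once, 109 genes were called in either direction. Of all genes, 24.6% were called in either direction. The count of 109 became 65 when ob/+ replicate 3, or 60 when ob/ob replicate 3, was left out.

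The mean profile of the members was -1.54, 0.10 and -0.66 in ob/+ replicates 1, 2 and 3 and -4.27, -4.49 and -4.55 in ob/ob. Among 16217 genes with a pool intensity of at least 0.1, the 8 nearest by root mean square distance over the 6 arrays were Cdh1, Spz1, Esrp1, Bspry, Acbd7, 4930426D05Rik, Cldn3 and Kdf1, at 0.443 to 0.577. Cdh1 and Cldn3 encode junction proteins of epithelia and Esrp1 an epithelial splicing factor. All 8 were highest in ob/+ replicate 2, as was the mean profile by which they were picked, so that order is no separate result. That mean blends members that were highest in different ob/+ replicates. Acbd7 came nearest to the spread of the members with -1.85, 1.21 and -0.72. By Pearson correlation in place of distance, 1 of the 8, Cdh1, was again among the nearest.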

How the data were processed

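Expression was measured on 6 two-colour Agilent arrays, 3 of ob/ob and 3 of ob/+ fat, with the sample in Cy5 and a pool of ob/+ RNA in Cy3 on each, and no dye swap. RNA was amplified before labelling, per the labels' protocols, and the submitters' processing notes name Agilent Feature Extraction 8.5.1.1. The authors deposited a linear intensity for each channel, 97.45% of values in steps of 0.01. Not given in the sources used here were the background correction, the normalization and the error model. The p-value deposited for each reporter compares the channels of 1 array. The log10 ratios deposited in the series matrix differed from the intensity ratios by at most 0.02 (log2) at 100% of reporters. That matrix supplied the replicate numbers, because the headers of the table columns were used to assign a group only. The counts of deposited p-values follow the table order and were not matched to replicate numbers.

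For 39407 of the 39507 reporters, with values on at least 2 arrays per group, log2 of sample over pool was fitted in limma 3.58.1 (R 4.3.3; lmFit, eBayes) as ob/ob minus ob/+, two-sided, with Benjamini-Hochberg adjustment over all reporters at 0.05. The fit was tested on simulated data. A gene is represented by its reporter of highest mean pool intensity, and 3208 reporters had their symbol updated through a RefSeq table. The median sample intensity was 0.11 to 0.15 per array, 42.0% of intensities were under 0.1, and the number of arrays limits precision. The files used here hold no flag for spots near background, so no bound was set for dim levels. Whether each sample is a separate animal is not in the labels, so that p-values reflect only the spread between these samples, which may be technical.

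The members and lists were chosen with earlier results of these data known. The text names all members, the 8 genes nearest their mean profile, and up to 4 list genes of highest pool intensity. Spink10, Spink12, Spint4, Lcn8, Defb48, Defb29, Defb39, Defb10, Spag11a, Aqp9, Etv5, Wfdc15b and Clu were named after their values were seen. So were Cubn, Atp6v0d2, Car12, Sycp3 and the chromosomal neighbours, and Cdh1, St14 and Mal2 among the epithelial genes. One item of the lists is not reported here. Same-numbered ob/+ and ob/ob samples did not deviate together (r = 0.062, -0.062 and 0.003), so numbers do not pair samples. The RefSeq promoter table held 9 of the 10 members. The design text of the series names islets and db/db mice, and the table names wt controls. The labels, which give adipose tissue and ob/+, were followed. The alternatives changed the normalization, used 1 channel, added a pseudocount, filtered dim reporters, changed the eBayes prior, weighted arrays, fitted a replicate block or left out each array. Figures were drawn with Python 3.11.15 and matplotlib 3.10.9.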

Additional observations from a re-analysis of the deposited data

How the results depend on the processing

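The 10 members gave 130 differences under the alternatives, of which 125 kept their sign. After quantile normalization of the log2 ratios Lcn5 turned to 0.07, Lcn9 to 0.06 and Gpx5 to 0.17, the members' median difference moved from -3.67 to -2.04 and their median ob/+ SD from 1.58 to 3.26. Leaving out single arrays gave -1.32 to 0.16 for Lcn9 and -1.19 to 0.16 for Gpx5, the positive values without ob/+ replicate 3. Quantile normalization left 750 of 8225 called reporters, 11 of 109 called list genes and 0 other epididymal genes called lower in limma (6 at an unadjusted p under 0.05), against 9. Fitting replicate number as a block, although the numbers do not pair the samples, gave 3333 reporters, 54 list genes and 3 epididymal genes. Leaving out 1 array at a time gave 4124 to 6960 reporters, 60 to 87 list genes and 3 to 13 epididymal genes called lower. Over the same omissions the members' median difference was -4.16 to -3.26 and, for ob/+ arrays left out, their median ob/+ SD 0.94 to 1.61. Ranking by Pearson correlation kept 1 of the 8 nearest genes. The cause of these changes was not tested. Rounding limits the folds of members whose ob/ob intensities were under 0.1, which leaves out Adgrg2, and 3 lean samples cannot show how often a lean sample is high.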

Other observations

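Genes of male germ cells and of the accessory glands were measured in the same fat. Of 18 germ cell genes, 6 were called lower in ob/ob and 2 higher in limma, summed at 3.31 to 6.02 in ob/+ and 3.98 to 6.09 in ob/ob. Smcp, a protein of the sperm mitochondrial capsule, had ob/+ log2 ratios of -1.49, 1.25 and -0.86 and fell by 3.53 ± 0.76 (adjusted p = 0.0348 in limma). The transition protein gene Tnp1 had another order, with 0.60, 0.14 and -1.31, and fell by 2.86 ± 0.53 (adjusted p = 0.0234 in limma). Among the higher calls, Sycp3, of the meiotic synaptonemal complex, rose by 3.68 ± 0.23 (adjusted p = 0.00246 in limma), from 0.23 to 0.34 in ob/+ to 2.51 to 4.75 in ob/ob, and made up most of the ob/ob sum. Of 13 testis somatic genes, 1 was lower and 2 higher, summed at 29.6 to 30.9 in ob/+ and 40.2 to 52.7 in ob/ob, mostly from Ctsl, a lysosomal protease of many cells, at 22.53 to 23.53 and 34.83 to 47.55.

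Akr1b7, an aldo-keto reductase of the vas deferens, also varied widely among the lean samples. Its log2 ratios were 0.00, -5.81 and 0.97 in ob/+ replicates 1, 2 and 3, so it was lowest in the sample where Crisp1, Adam7, Spint3 and Cuzd1 were highest, and between -6.94 and -6.91 in ob/ob. It was not called (-5.32 ± 1.92, adjusted p = 0.132 in limma). Of 16 genes of seminal vesicle, prostate and vas deferens, 1 was lower and 2 higher in limma, and their summed intensity of 3.22 to 53.4 in ob/+ and 2.21 to 2.43 in ob/ob was mostly that of Akr1b7 in the high samples. Svs5, a seminal vesicle secretion gene, fell by 0.79 ± 0.08 (adjusted p = 0.00606 in limma) with ob/+ ratios of 0.14, -0.13 and 0.08.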
